A study of Mus musculus with 12 samples.

Results

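The Dlk1-Dio3 domain of mouse chromosome 12 holds one of the largest groups of miRNA hairpins in the mammalian genome. Its hairpins were taken from the deposited small RNA table by name, as the rows whose miRNA number is one of 51 numbers assigned to the domain. The rule found 55 hairpins among 1123 miRNA hairpins and 2030 features in all. The rule used names and not measured levels, but it was chosen with earlier results of these data known. The 12 libraries were made from mouse oocytes that had been picked by hand from ovaries without hormone stimulation. The 4 wild type libraries came from mice of wild type ancestry. The 4 Khdc3-null libraries came from mice that lack Khdc3, a maternal-effect gene whose protein belongs to the subcortical maternal complex of the egg. The 4 descendant libraries came from mice that are wild type themselves and have Khdc3-null grandfathers, whose mates were wild type. The labels give no age, no number of oocytes or animals per library, no strain and no form of the null allele. They do not say that libraries came from separate animals, so p-values measure only the spread between these libraries, which may be technical. The table lists no mRNAs, so the loss of Khdc3 could not be checked.

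Imprinting means that a gene is read from the chromosome of only the mother or only the father. In the Dlk1-Dio3 domain the protein-coding genes Dlk1, Rtl1 and Dio3 are read from the paternal chromosome. The long noncoding RNAs Meg3, Rian and Mirg, with the miRNA hairpins that lie in or between them, are read from the maternal chromosome. The hairpins are cut into mature miRNAs of about the same length, each of which pairs with target mRNAs mainly through its seed, bases 2 to 8 from the 5′ end. The cluster is known for high levels in brain, placenta and embryo. In mouse oocytes miRNAs as a class are known to have little effect on their targets.

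The mature sequences of the 8 most abundant hairpins are shown first, since these hairpins supply most of the cluster's reads. They are from RefSeq (build GRCm38.p6), with the seed in capitals. The deposited table counts reads per hairpin, so which of the arms was present cannot be read from it, and Mir453 has a single mature sequence in RefSeq.
miR-341-5p: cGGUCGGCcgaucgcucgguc
miR-341-3p: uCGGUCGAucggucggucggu
miR-370-5p: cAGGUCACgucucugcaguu
miR-370-3p: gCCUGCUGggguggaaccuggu
miR-770-5p: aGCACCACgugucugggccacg
miR-770-3p: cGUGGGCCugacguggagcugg
miR-541-5p: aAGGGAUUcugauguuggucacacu
miR-541-3p: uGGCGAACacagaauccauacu
miR-540-5p: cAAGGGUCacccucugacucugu
miR-540-3p: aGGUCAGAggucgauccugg
miR-127-5p: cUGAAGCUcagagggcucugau
miR-127-3p: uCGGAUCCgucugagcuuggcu
miR-493-5p: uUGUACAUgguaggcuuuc
miR-493-3p: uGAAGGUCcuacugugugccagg
miR-453: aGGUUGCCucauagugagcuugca
Each of these has a seed of its own among the mature sequences of the cluster found in RefSeq, except miR-370-5p and miR-453.

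The hairpins fall into sections along the chromosome (GRCm38, GENCODE M21). The first section has 11 hairpins, from Mir770 inside Meg3 (chr12:109563692-109563785) to Mir136. In it Mir431, Mir433, Mir127, Mir434, Mir432 and Mir136 lie opposite the exon of Rtl1, a retrotransposon-derived gene of the placenta whose mRNA they match perfectly. The second section has 3 hairpins, Mir341 (chr12:109611500-109611595) and Mir370 (chr12:109618258-109618336) in introns of Rian, and Mir882. The third section has 39 hairpins, from Mir379 (chr12:109709060-109709125) to Mir3072 (chr12:109747878-109747960), of which those from Mir382 onward lie inside Mirg. The distance from Mir770 to Mir3072 is 184 kb. Mir1247 (chr12:110278048-110278129, minus strand) lies 530.1 kb further on, in an exon of Dio3os, the transcript opposite Dio3. Mir496b matches the rule by its number but is annotated on chromosome 19, opposite an intron of Gnaq, and so lies outside the domain.

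Levels are given in RPM, the reads of a hairpin scaled to the same total of mapped reads in every library. Reads of the cluster were found in every library, at a modest level. Its 55 hairpins together took between 1.32% and 1.85% of all miRNA reads. The median hairpin of the cluster stood at 16.2 RPM over the 12 libraries, and the median of all miRNA hairpins at 20.8 RPM. The median of 14 hairpins of muscle and brain, given with the markers below, was 25.9 RPM. Whether the oocytes themselves made the RNAs of the cluster was not tested. Of the 55, 5 had a mean above 100 RPM, 33 lay between 10 and 100 RPM and 17 below 10 RPM. At least 1 read was found in every library for 48 of them. Mir544, the weakest, was at 0 reads in 10 libraries and at 0.358 and 1.70 RPM in the other two.

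The levels were very unequal within the cluster. The 5 most abundant hairpins gave 48.3% of its reads and the 12 most abundant 70.1%. Per length of the hairpin the same 12 led. Mir341, in Rian, was the most abundant, at a mean of 369.2 RPM, which is rank 84 among all miRNA hairpins. It stood at 351, 553, 352 and 357 RPM in the wild type libraries, 235, 432.4, 311 and 285 RPM in the Khdc3-null libraries and 483, 396, 332 and 342 RPM in the descendant libraries. The libraries of all groups overlapped, with wild type replicate 2 the highest. Mir370, also in Rian, followed at a mean of 208 RPM and was steadier. It stood at 231, 183, 214 and 184 RPM in the wild type libraries, 215, 248, 215 and 216 RPM in the Khdc3-null libraries and 209.5, 219, 165 and 196 RPM in the descendant libraries. Mir770, in Meg3, had a mean of 182 RPM and stood at 165, 153, 174 and 178 RPM in the wild type libraries, 155, 209, 164 and 189.7 RPM in the Khdc3-null libraries and 186, 199, 206 and 201 RPM in the descendant libraries. Mir541, in an intron of Mirg, had a mean of 177 RPM and ranged from 128 to 234 RPM. Mir540, between Meg3 and Rtl1, had a mean of 165 RPM and ranged from 97.6 to 227 RPM. The ranges of Mir370, Mir770, Mir541 and Mir540 over the 12 libraries overlapped. Within libraries, Mir370 was above Mir770 in every wild type and Khdc3-null library and below it in descendant replicates 3 and 4. The order of these hairpins was not tested.

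The next 7 lay between 55.2 and 85.1 RPM on average. Mir127, an Rtl1-antisense hairpin whose miRNA cuts the Rtl1 mRNA in mice, had a mean of 85.1 RPM and a range of 62.1 to 151 RPM. Mir493 had a mean of 79.5 RPM, Mir453 of 77.4 RPM, Mir434 of 69.8 RPM, Mir1247 of 67.5 RPM and Mir431 of 61.9 RPM. Mir134, whose miRNA acts in the dendrites of rodent neurons, had a mean of 55.2 RPM. It was spread most widely of these, from 13.2 RPM in Khdc3-null replicate 4 to 154.3 RPM in descendant replicate 1. The remaining hairpins, most of the third section among them, had means of 47.2 RPM or less. Of the 12 most abundant, 3 belong to the third section, although it holds 39 of the 55 hairpins.

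In the third section Mir411, Mir376b and Mir376c led after Mir541, Mir453 and Mir134. Mir411 stood at 56.1, 36.6, 48.2 and 45.8 RPM in the wild type libraries, 36.6, 50.0, 87.6 and 32.6 RPM in the Khdc3-null libraries and 39.1, 31.1, 55.2 and 47.7 RPM in the descendant libraries, with Khdc3-null replicate 3 the highest. Mir376b, of a family of similar hairpins, stood at 42.8, 41.6, 46.9 and 47.2 RPM in the wild type libraries, 31.8, 44.9, 20.9 and 55.8 RPM in the Khdc3-null libraries and 42.8, 33.8, 45.5 and 84.6 RPM in the descendant libraries, and its wild type libraries were the closest together. Mir376c stood at 46.1, 49.6, 53.1 and 48.8 RPM in the wild type libraries, 24.2, 40.1, 34.2 and 51.8 RPM in the Khdc3-null libraries and 31.4, 30.4, 58.1 and 68.7 RPM in the descendant libraries. Mir376a, the third hairpin of that family, was weaker, with a mean of 12.8 RPM. The next were Mir758 at a mean of 35.3 RPM, Mir487b at 34.4 RPM and Mir485 at 32.1 RPM. At the low end, 7 hairpins had at least 1 library at 0 reads. In Khdc3-null replicate 1 these were Mir136, Mir495, Mir381, Mir668, Mir154 and Mir544. Mir495 was also at 0 in wild type replicate 3, and Mir539 in descendant replicate 3.

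**Figure D1:**
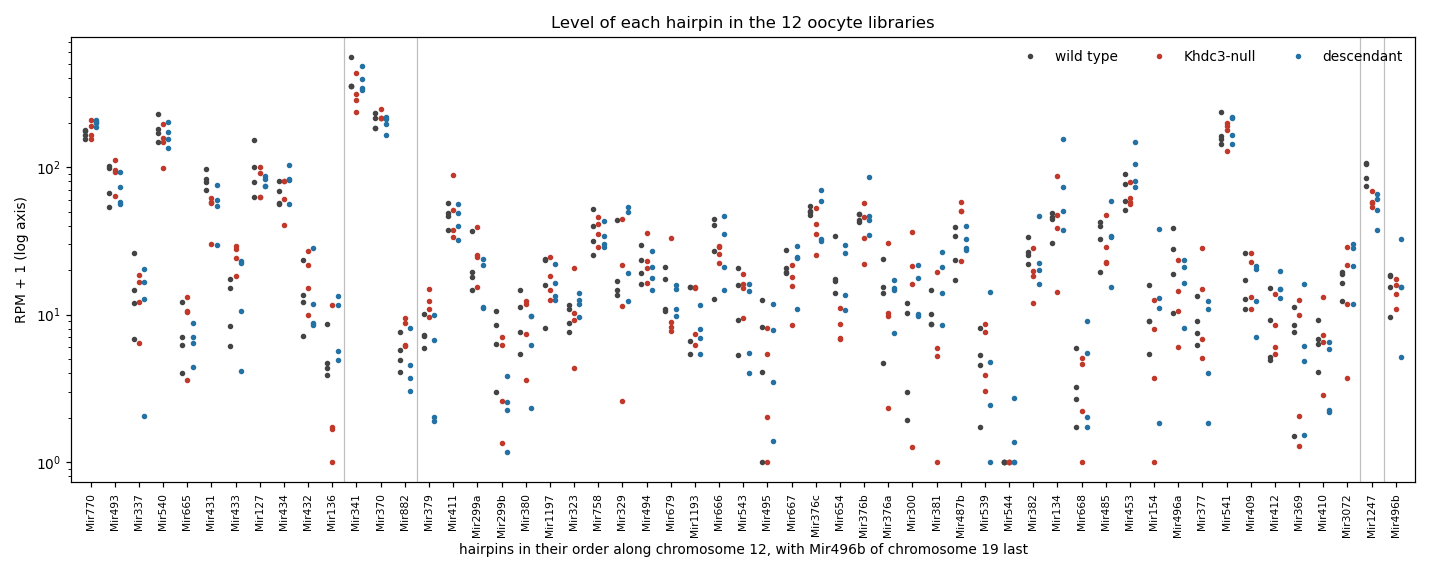
RPM + 1 on a log axis for each of the 55 hairpins, in their order along the chromosome, with 1 point per library coloured by group and grey lines between the sections. Mir341, Mir370, Mir770, Mir540 and Mir541 stand above the rest, and the 3 colours overlap for most hairpins.

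The more abundant hairpins of the cluster tended to be richer in G and C bases. The 12 most abundant hairpins had a median of 58.3% G and C bases (43.3% to 74.4%), and the other 41 with a RefSeq hairpin sequence had 44.2% (29.1% to 72.3%). The rank correlation between GC content and mean RPM was 0.40 over 53 hairpins of the cluster and 0.19 over 865 other hairpins. With hairpin length it was 0.38 over the 53. These are descriptions across hairpins that share libraries, depth and, in part, transcripts. Mir541, with 43.3% G and C, is an abundant hairpin of low GC content.

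**Figure D2:**
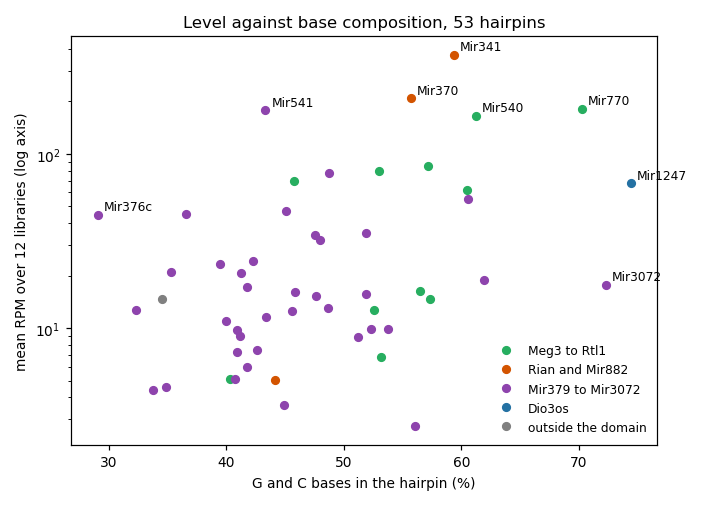
Mean RPM over the 12 libraries (log axis) against the share of G and C bases in the hairpin, 1 point per hairpin for the 53 with a RefSeq hairpin sequence, coloured by section. The hairpins above 100 RPM lie at 43.3% to 70.2% G and C, and most of the third section lies below 50% and below 50 RPM.

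Several hairpins of the cluster share a seed, so that their miRNAs could pair with the same target sites. Among 102 mature sequences found in RefSeq for the 55 hairpins there were 94 different seeds, of which 8 were shared by a pair of hairpins. Only 47 of the hairpins had both arms there, so any seed shared with an absent arm is missed. The 8 pairs are shown with the shared seed in capitals.
miR-370-5p: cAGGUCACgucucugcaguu
miR-1193-3p: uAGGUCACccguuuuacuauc
miR-379-5p: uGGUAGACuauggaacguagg
miR-1193-5p: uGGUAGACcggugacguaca
miR-379-3p: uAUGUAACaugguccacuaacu
miR-411-3p: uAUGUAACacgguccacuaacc
miR-299a-3p: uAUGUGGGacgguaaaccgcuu
miR-299b-3p: uAUGUGGGacgguaaacc
miR-758-5p: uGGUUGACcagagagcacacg
miR-1197-5p: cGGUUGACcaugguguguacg
miR-453: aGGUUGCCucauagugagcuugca
miR-496a-5p: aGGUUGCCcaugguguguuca
miR-494-5p: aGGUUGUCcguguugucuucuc
miR-410-5p: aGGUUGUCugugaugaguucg
miR-376c-5p: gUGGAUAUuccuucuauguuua
miR-376b-5p: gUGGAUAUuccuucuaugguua
The levels within a pair were often far apart, although a level is that of the hairpin and not of the arm. Mir370 stood at 208 RPM and its partner Mir1193 at 8.91 RPM. Mir411 stood at 47.2 RPM and its partner Mir379 at 7.24 RPM. Mir453 stood at 77.4 RPM and Mir496a at 17.2 RPM. Mir376c and Mir376b stood at 44.7 and 44.9 RPM. Their hairpins are 80.7% identical in sequence, so reads of the one can be counted for the other. Mir299b lies on the opposite strand within Mir299a, and the sequence of miR-299b-3p is contained in miR-299a-3p. The treatment of reads that align to more than 1 place and of strand is not given in the sources used here, so the values of Mir299a and Mir299b cannot be told apart with certainty.

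Depth was 2918620 to 7640554 mapped reads per library, of which 7139 to 17326 came from the cluster. Where no read was found, a level of up to 3 reads remains possible, or 0.393 to 1.03 RPM depending on the library, for counting error alone. The spread between libraries of a group was far larger than counting error. The median coefficient of variation within groups was 20.8% for hairpins of the cluster above 100 RPM, 42.3% for those from 10 to 100 RPM and 65.1% for the tested ones below 10 RPM. Counting error alone would give 3.20%, 9.40% and 17.1%. Other miRNA hairpins of the same levels had medians of 18.5%, 37.7% and 71.0%. Khdc3-null replicate 1 stood apart from the rest, with a median correlation of 0.922 with the other libraries, against 0.948 to 0.963 for those. In it 6 hairpins of the cluster were at 0 reads and 12 had their lowest value.

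Markers of other cells were measured beside the cluster, since an oocyte preparation can hold attached cells. Only 9 of 12 granulosa names and 14 of 15 names of tissues outside the ovary were matched. None of the matched markers was at 0 in all libraries. The 9 matched granulosa hairpins were led by Mir322. They summed to 3691 to 5084 RPM in wild type, 3777 to 5029 RPM in Khdc3-null and 3489 to 4187 RPM in descendant libraries. The 14 hairpins of stroma and vessels, led by Mir10b, summed to 13117 to 17675 RPM in wild type and 13352 to 15832 RPM in Khdc3-null libraries. In the descendant libraries they summed to 10564 to 12025 RPM, below every other library. The erythrocyte hairpins of the table were led by Mir486, with a mean of 119 RPM over the 12 libraries. Mir451a had a mean of 19.9 RPM and Mir144 of 3.12 RPM. Mir486 was highest in Khdc3-null replicate 1, and its groups overlapped. The 6 leukocyte hairpins summed to 215 to 239.7 RPM in wild type, 236 to 381.7 RPM in Khdc3-null and 171 to 251 RPM in descendant libraries. The 6 hairpins of the Mir290 to Mir295 cluster, which marks germ line and early embryo, summed to 119 to 169.7 RPM, 64.7 to 145 RPM and 107 to 162 RPM, with Khdc3-null replicate 1 the lowest. The 14 hairpins of muscle and brain, which an ovary should hardly make, had a median level of 25.9 RPM and were led by Mir133b at 738 RPM. That median lies above the 16.2 RPM of the median cluster hairpin. Fewer cells of a type and less RNA per cell cannot be told apart in such libraries, and the part of other cells in the cluster's levels was not tested.

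The summed level of the cluster did not separate the groups. It was 2305, 2383, 2386 and 2245 RPM in the wild type libraries, with a mean of 2329.8 ± 68.0 RPM (SD, n = 4). It was 1923, 2446, 2328 and 1963 RPM in the Khdc3-null libraries, with a mean of 2165 ± 261 RPM. It was 2619, 2268, 2046 and 2439.9 RPM in the descendant libraries, with a mean of 2343 ± 245 RPM. The wild type libraries lay within the range of both other groups, and the spread was widest in those. By section, the hairpins from Meg3 to Rtl1 summed to 719.7 ± 40.9 RPM in wild type, 678 ± 109.8 RPM in Khdc3-null and 698 ± 47.8 RPM in descendant libraries. Those of Rian and Mir882 summed to 611 ± 87.0, 546 ± 97.7 and 589.5 ± 87.8 RPM. Those from Mir379 to Mir3072 summed to 893 ± 58.3, 869.6 ± 102 and 987 ± 142 RPM. The groups overlapped in each of these sections. Sums over the hairpins are given without a test.

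**Figure D3:**
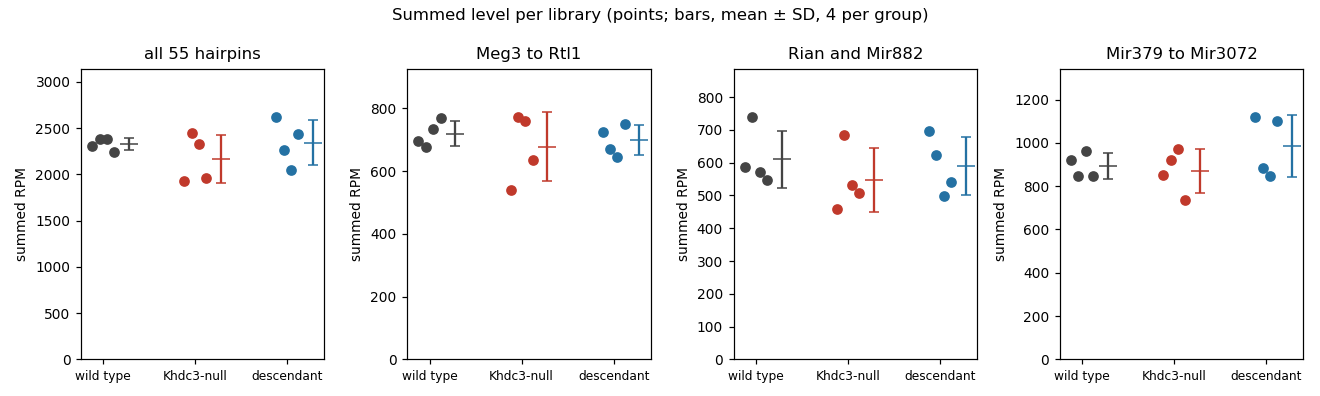
Summed RPM per library for all 55 hairpins and for the 3 larger sections, with 1 point per library and the mean ± SD of 4 libraries beside each group. The total lies between 1923 and 2619 RPM and the groups overlap in every panel.

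Differences between groups were tested for each hairpin on log2(RPM + 1), in a fit over all 1889 features that passed a filter on low values, with p-values adjusted over all of them. Of the 55 hairpins 54 passed the filter. Mir544 did not. The 3 comparisons share libraries with each other, so their values are not independent.

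The first comparison asks which hairpins differ in oocytes that lack Khdc3. With limma no hairpin of the cluster passed the adjusted threshold of 0.05, nor did any of the 1889 features (0.0%). An unadjusted p under 0.05 was reached by 4 of 54 hairpins, or 7.41%, and by 5.03% of all features. The groups did not overlap for the same 4 hairpins, or 7.41%, and for 3.18% of all features. Higher mean log2 values in Khdc3-null were found for 24 hairpins and lower ones for 30. Over all features 768 were higher and 1121 lower. The median log2 difference was -0.10 in the cluster and -0.05 over all features, and that of the cluster was -0.15 without Khdc3-null replicate 2 and -0.038 without Khdc3-null replicate 4. The 95% interval lay within a 2-fold change in either direction for 17 of the 54, so larger differences were not excluded for most of them.

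The hairpins that stood out most in Khdc3-null libraries are shown with both arms, as they are the ones whose groups did not overlap.
miR-1247-5p: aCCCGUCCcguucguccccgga
miR-1247-3p: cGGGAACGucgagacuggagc
miR-431-5p: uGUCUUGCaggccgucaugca
miR-431-3p: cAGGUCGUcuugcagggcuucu
miR-433-5p: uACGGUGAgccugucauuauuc
miR-433-3p: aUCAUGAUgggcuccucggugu
miR-654-5p: uGGUAAGCugcagaacaugugu
miR-654-3p: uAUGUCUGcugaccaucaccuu
Mir1247, of Dio3os, stood at 82.7, 104, 105 and 73.5 RPM in the wild type libraries, 57.3, 56.5, 52.4 and 67.5 RPM in the Khdc3-null libraries and 64.3, 59.9, 50.0 and 36.8 RPM in the descendant libraries. All wild type libraries were above all Khdc3-null libraries and above all descendant libraries. The log2 difference of Khdc3-null from wild type was -0.63 (SE 0.21, limma adjusted p = 0.830). Mir431, one of the Rtl1-antisense hairpins (chr12:109590447-109590537), stood at 78.1, 82.2, 96.6 and 69.2 RPM in the wild type libraries, 28.9, 60.3, 56.7 and 55.9 RPM in the Khdc3-null libraries and 53.8, 28.5, 58.6 and 74.2 RPM in the descendant libraries. Every wild type library was above every Khdc3-null library, and the descendant libraries overlapped both. The log2 difference of Khdc3-null from wild type was -0.73 (SE 0.29, limma adjusted p = 0.945), and -0.48 without Khdc3-null replicate 1, the lowest. Mir433 (chr12:109591715-109591838), its neighbour in the same Rtl1 exon, lay the other way. It stood at 14.2, 16.3, 7.41 and 5.13 RPM in the wild type libraries, 28.4, 27.1, 23.4 and 17.1 RPM in the Khdc3-null libraries and 9.50, 3.14, 21.5 and 22.2 RPM in the descendant libraries. Every Khdc3-null library was above every wild type library, while 2 descendant libraries fell in the Khdc3-null range and 2 below it. The log2 difference was 1.19 (SE 0.52, limma adjusted p = 0.945). Mir654 (chr12:109723218-109723301), of the third section, stood at 16.3, 12.9, 33.1 and 16.0 RPM in the wild type libraries, 7.63, 5.82, 5.99 and 10.0 RPM in the Khdc3-null libraries and 25.3, 28.7, 9.74 and 12.6 RPM in the descendant libraries. Khdc3-null libraries lay below every wild type library, among which replicate 3 was far above the others. The log2 difference was -1.24 (SE 0.40, limma adjusted p = 0.830), and -0.96 without wild type replicate 3. Mir487b, also of the third section, had the next smallest p. It stood at 33.3, 22.3, 16.1 and 38.6 RPM in the wild type libraries, 49.4, 56.9, 49.2 and 22.2 RPM in the Khdc3-null libraries and 39.1, 26.6, 31.4 and 27.3 RPM in the descendant libraries, with overlapping groups and a log2 difference of 0.66 (SE 0.33, limma adjusted p = 0.945), or 0.44 without wild type replicate 3. Without Khdc3-null replicate 1, which stood apart from the other libraries, the log2 difference was -0.62 for Mir1247, 1.10 for Mir433 and -1.26 for Mir654.

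The other Rtl1-antisense hairpins overlapped between these groups. The log2 difference of Khdc3-null from wild type was -0.27 for Mir127, -0.04 for Mir434, 0.42 for Mir432 and -1.09 for Mir136. Single libraries moved these values widely. Leaving out each library in turn gave -0.46 without wild type replicate 2 and -0.037 without wild type replicate 3 as the ends of the range for Mir127. It gave -0.15 to 0.18 for Mir434 and 0.14 to 0.71 for Mir432. For Mir136 it gave -1.84 without Khdc3-null replicate 4 and -0.66 without Khdc3-null replicate 1. The 5 most abundant hairpins had log2 differences of -0.36 for Mir341, 0.14 for Mir370, 0.09 for Mir770, 0.01 for Mir541 and -0.30 for Mir540. Without Khdc3-null replicate 1 these were -0.23 for Mir341, 0.16 for Mir770, -0.0073 for Mir541 and -0.11 for Mir540, and without wild type replicate 2 the value was -0.20 for Mir341. Over the left-out libraries Mir370 had 0.093 to 0.21, Mir770 0.017 to 0.16 and Mir541 -0.067 to 0.17. None of these passed the threshold, and the SE was 0.13 for Mir370 and 0.21 for Mir540.

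The second comparison asks whether oocytes of wild type mice with Khdc3-null grandfathers differ from those of wild type ancestry. No hairpin of the cluster and none of the 1889 features (0.0%) passed the adjusted threshold. An unadjusted p under 0.05 was reached by 5 of 54 hairpins, or 9.26%, and by 4.08% of all features. The groups did not overlap for 2 of 54 hairpins, or 3.70%, and for 2.75% of all features. Higher mean log2 values in descendants were found for 19 hairpins and lower ones for 35. With scaling to the miRNA total 23 hairpins were higher and 31 lower. Over all features 867 were higher and 1022 lower in the reported fit. The median log2 difference was -0.08 in the cluster and -0.02 over all features, and that of the cluster was -0.023 without descendant replicate 3 and -0.025 without wild type replicate 1. The 95% interval lay within a 2-fold change either way for 20 of the 54.

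Mir1247 had the smallest p of the cluster in this comparison. Its descendant libraries ranged from 36.8 to 64.3 RPM and its wild type libraries from 73.5 to 105 RPM, with no overlap. The log2 difference of descendant from wild type was -0.79 (SE 0.21, limma adjusted p = 0.946). The same wild type libraries serve in both comparisons of this hairpin. The summed stroma and vessel markers were also lower in every descendant library than in every wild type library, and their part in the values of this comparison was not tested. Mir770, in Meg3, was the other hairpin whose groups did not overlap. Its descendant libraries ranged from 186 to 206 RPM and its wild type libraries from 153 to 178 RPM. The log2 difference was 0.24 (SE 0.13, limma adjusted p = 0.946).

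Mir431 had descendant libraries at 28.5 to 74.2 RPM against 69.2 to 96.6 RPM in wild type. The log2 difference was -0.66 (SE 0.29, limma adjusted p = 0.946), and -0.39 without descendant replicate 2, the lowest. Mir453, in an intron of Mirg, stood at 76.1, 58.3, 89.4 and 49.8 RPM in the wild type libraries, 57.3, 55.2, 78.4 and 60.3 RPM in the Khdc3-null libraries and 104, 80.0, 72.2 and 147 RPM in the descendant libraries. Its descendant libraries overlapped the wild type range, with replicates 1 and 4 above it. The log2 difference was 0.53 (SE 0.25, limma adjusted p = 0.946), and 0.34 without descendant replicate 4. Mir412, in Mirg, stood at 8.25, 14.2, 4.2 and 3.88 RPM in the wild type libraries, 5.00, 7.54, 12.7 and 4.39 RPM in the Khdc3-null libraries and 18.8, 13.9, 11.9 and 13.8 RPM in the descendant libraries. Its log2 difference was 1.00 (SE 0.43, limma adjusted p = 0.946), and wild type replicate 2 lay within the descendant range. Mir299b, the opposite-strand hairpin of Mir299a, stood at 7.52, 2.00, 9.63 and 5.27 RPM in the wild type libraries, 5.26, 0.343, 1.61 and 6.03 RPM in the Khdc3-null libraries and 1.25, 1.57, 2.85 and 0.179 RPM in the descendant libraries. Its log2 difference was -1.50 (SE 0.61, limma adjusted p = 0.946), on levels of a few RPM.

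**Figure D4:**
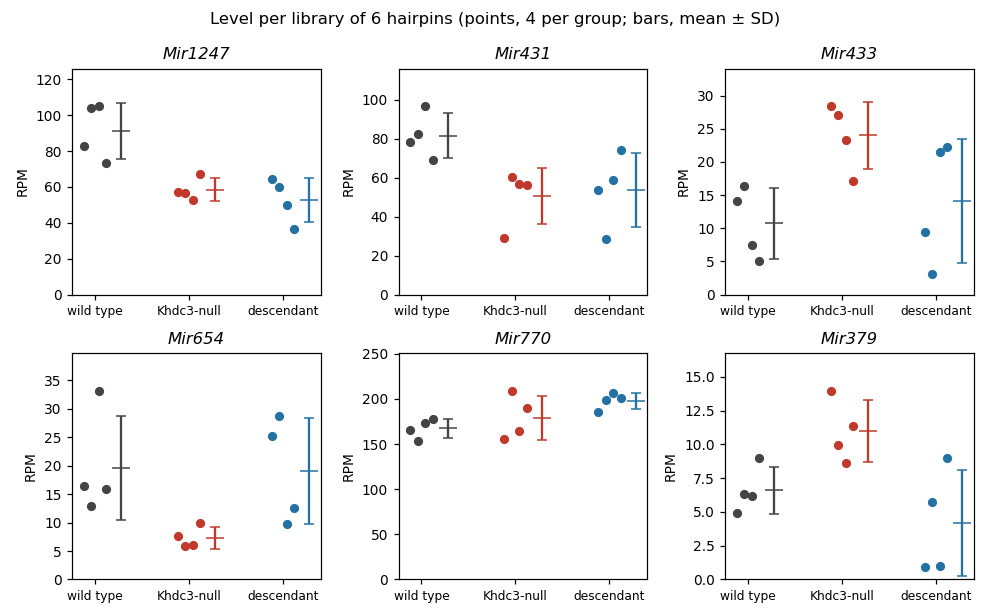
RPM per library for 6 hairpins, with 1 point per library and the mean ± SD of 4 libraries beside each group. The wild type points of Mir1247 (73.5 to 105 RPM) lie above those of both other groups, and the Mir433 points of Khdc3-null (17.1 to 28.4 RPM) lie above those of wild type (5.13 to 16.3 RPM).

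The third comparison sets the descendant against the Khdc3-null libraries. No hairpin of the cluster and none of the 1889 features (0.0%) passed the adjusted threshold. An unadjusted p under 0.05 was reached by 6 of 54 hairpins, or 11.1%, and by 6.41% of all features. The groups overlapped for all 54 hairpins, while they did not for 3.02% of all features. Higher mean log2 values in descendants were found for 30 hairpins and lower ones for 24. Over all features 1073 were higher and 816 lower. The median log2 difference was 0.08 in the cluster and 0.05 over all features. The median of the cluster was -0.058 without Khdc3-null replicate 1 and -0.023 without descendant replicate 1. The summed stroma and vessel markers were lower in every descendant library than in every Khdc3-null library, and their part in the values of this comparison was not tested. The 95% interval lay within a 2-fold change either way for 18 of the 54.

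Mir379, the first hairpin of the third section, had the smallest p. It stood at 4.92, 6.31, 6.18 and 9.02 RPM in the wild type libraries, 13.9, 9.94, 8.62 and 11.4 RPM in the Khdc3-null libraries and 0.896, 5.76, 1.01 and 8.97 RPM in the descendant libraries. Descendant replicates 1 and 3 were near 1 RPM, replicate 4 lay in the Khdc3-null range and replicate 2 below it. The log2 difference of descendant from Khdc3-null was -1.56 (SE 0.51, limma adjusted p = 0.658). Mir654, which had the most negative log2 difference of the cluster in the first comparison, here had one of 1.16 (SE 0.40, limma adjusted p = 0.722), with overlapping groups. Mir453 had one of 0.63 (SE 0.25, limma adjusted p = 0.722). Mir136, the weakest of the Rtl1-antisense hairpins, stood at 2.89, 3.69, 7.66 and 3.33 RPM in the wild type libraries, 0, 0.685, 0.730 and 10.6 RPM in the Khdc3-null libraries and 4.66, 3.93, 10.6 and 12.4 RPM in the descendant libraries. Khdc3-null replicates 1, 2 and 3 were at or near 0, while replicate 4 was about as high as descendant replicate 3. The log2 difference was 1.75 (SE 0.66, limma adjusted p = 0.722). Mir381 stood at 13.7, 7.70, 9.14 and 7.63 RPM in the wild type libraries, 0, 18.5, 4.24 and 4.94 RPM in the Khdc3-null libraries and 7.53, 25.5, 20.1 and 13.1 RPM in the descendant libraries. Its log2 difference was 1.70 (SE 0.68, limma adjusted p = 0.722), and 0.93 without Khdc3-null replicate 1, in which it was at 0. Mir412 was the remaining hairpin at an unadjusted p under 0.05, with a log2 difference of 0.97 (SE 0.43, limma adjusted p = 0.722). Without Khdc3-null replicate 1 the log2 difference was -1.45 for Mir379, 1.19 for Mir654, 0.59 for Mir453 and 1.33 for Mir136.

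**Figure D5:**
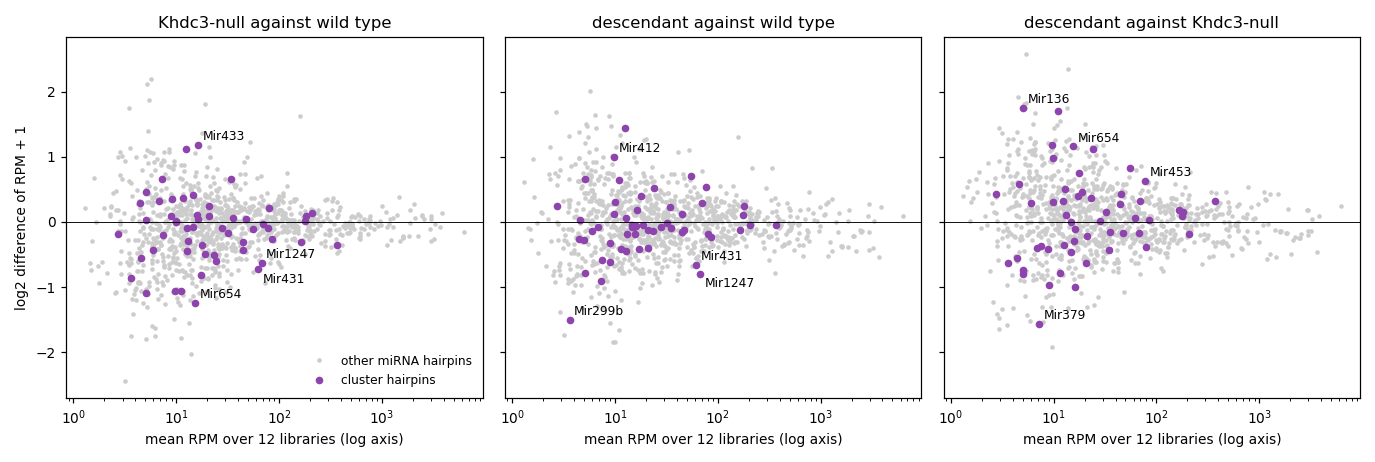
Log2 difference of RPM + 1 against mean RPM (log axis) for each tested miRNA hairpin in the 3 comparisons, with the cluster in purple, other miRNA hairpins in grey and the 4 cluster hairpins of smallest p named. The cluster hairpins lie within the cloud of the others, which widens toward low levels, and none passed the adjusted threshold.

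The domain holds 7 further hairpins that the name rule leaves out. These are Mir1906-1, Mir673, Mir3544, Mir3070a, Mir3070b, Mir3071 and Mir1188, of which Mir3544 was added after its values were seen. Mir1188, beside Mir341 in Rian, had a mean of 198 RPM and Mir3070b, between Meg3 and Rtl1, of 142 RPM. Mir3071 lies opposite Mir136 and Mir3544 opposite Mir337, so reads of these pairs cannot be told apart unless strand was used. None of the 7 passed the adjusted threshold in any comparison. Mir673, lower in descendant than in Khdc3-null libraries, and Mir1906-1, higher in them, were at an unadjusted p under 0.05 in the third comparison. Of 5 hairpins of other imprinted loci (Mir335 of Mest, Mir483 of Igf2, Mir675 of H19, Mir296 and Mir298 of Gnas) none passed either. Of these, Mir296 and Mir675 were at an unadjusted p under 0.05, both lower in Khdc3-null than in wild type and than in descendant libraries. The same Khdc3-null libraries serve in both comparisons. The groups did not overlap for Mir296 in either of them, and overlapped for Mir675 in both. Of 16 tested hairpins named Mir297, Mir466, Mir467 or Mir669, many of which lie in the imprinted gene Sfmbt2, none passed in any comparison. Of these, 1 was higher and 1 lower at an unadjusted p under 0.05 in the first comparison. In the second 2 were lower at that level, and in the third 1 was lower. The groups did not overlap for 1 of the 16 in the first comparison and 3 in the second, all lower. Over all features an unadjusted p under 0.05 was reached by 5.03%, 4.08% and 6.41% in the 3 comparisons in order. The groups did not overlap for 3.18%, 2.75% and 3.02%.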

How the data were processed

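The deposited table gives RPM per feature with 1 added to every value, as the file shows, and 1 was subtracted. The authors aligned reads to mm10 with Bowtie2, per the submitters' processing notes; its version and the treatment of reads with several alignments are not given in the sources used here. RNA was isolated with the PicoPure kit and libraries were made with the NEXTFLEX small RNA kit, per the labels. After the subtraction 100% of values were whole multiples of a step per library, within 0.01 reads, which gave depth. Libraries of a group differed by more than counting noise (chi-square per degree of freedom 15.1 to 103), so none was treated as a library deposited again. This does not show that they are separate biological samples. Replicate numbers follow the order of the records and pair nothing. No other column of the table holds samples.

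Features at 1.61 RPM (10 reads at the median depth) or more in at least 4 libraries entered a fit of 3 group means to log2(RPM + 1) of the 12 libraries, made with the R package limma (version 3.58.1; R 4.3.3) and its variance trend. P-values were adjusted by Benjamini-Hochberg over the tested features, with a threshold of 0.05. Fold changes refer to RPM + 1 and understate changes of weak hairpins. Named hairpins are the 12 of highest mean, the 5 of smallest p per comparison, and those whose groups do not overlap at 10 RPM or more in a group; Mir412 in the third comparison completes a count. The hairpins and lists were chosen with earlier results of these data known. Alternatives covered scaling, pseudocount, filter, test, libraries and members. The marker lists also named Mir224, Mir450a-1, Mir450a-2 and Mir122, which were not analysed here. Mature sequences were found in RefSeq for all 55 hairpins and hairpin sequences for 53.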

Additional observations from a re-analysis of the deposited data

Results flagged for a closer look

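In 6 of 63 groups of 4 libraries, over 20 named hairpins and the summed level of the cluster, 1 library lay far from the other three by Dixon's test at the 95% level. Chance gives about 1 such group in 20. Mir341 stood at 553 RPM in wild type replicate 2, and at 351 to 357 RPM in the other wild type libraries. Mir370 stood at 248 RPM in Khdc3-null replicate 2, and at 215 to 216 RPM in the others. Mir431 stood at 28.9 RPM in Khdc3-null replicate 1, and at 55.9 to 60.3 RPM in the others. Mir654 stood at 33.1 RPM in wild type replicate 3, and at 12.9 to 16.3 RPM in the others. Mir136 stood at 7.66 RPM in wild type replicate 3, against 2.89 to 3.69 RPM in the others, and at 10.6 RPM in Khdc3-null replicate 4, against 0 to 0.730 RPM in the others.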

How the results depend on the processing

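No hairpin of the cluster passed the threshold under any of the 60 alternatives run over the 3 comparisons. Limma-voom on reads recovered from the RPM steps was among these. For hairpins named in a comparison for a small p or for groups without overlap, 285 alternative values were computed. Each of these values kept its direction and its side of the threshold. Hairpins named only for a high mean were not among them, and some changed direction when 1 library was left out. In Khdc3-null against wild type, Mir134 went from -0.11 to 0.37 without Khdc3-null replicate 4. Sizes moved more for weak hairpins: with 5 RPM added in place of 1 RPM the log2 difference was 0.80 for Mir136 (1.75 reported) and -0.89 for Mir379 (-1.56 reported) in descendant against Khdc3-null, and -0.74 for Mir299b (-1.50 reported) in descendant against wild type. Over all features, 1 passed in Khdc3-null against wild type with array quality weights, where 171 were at an unadjusted p under 0.05 (95 in the reported fit). Leaving out each library in turn gave 0 to 1 features past the threshold there, with 1 without Khdc3-null replicate 1, and 63 to 125 at an unadjusted p under 0.05, with 63 without wild type replicate 2. Hairpins of the cluster at an unadjusted p under 0.05 then numbered 2 to 7 (4 reported), with 2 without wild type replicate 3 and 7 without Khdc3-null replicate 4. In descendant against wild type they numbered 2 to 5 (5 reported), with 2 without wild type replicate 3 or descendant replicate 1 and 3 without wild type replicate 1, 2 or 4 or descendant replicate 2 or 4. With a filter of 10 RPM, under which fewer hairpins are tested, there were 3 in that comparison and 3 in descendant against Khdc3-null (6 reported). The median of the cluster in descendant against Khdc3-null was -0.058 to 0.14 over the left-out libraries, and was below 0 without Khdc3-null replicate 1 and without descendant replicate 1. The cause was not tested.

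Scaling moved the median of all features by less than 0.1 on the log2 scale, but it moved the split of features at an unadjusted p under 0.05. In Khdc3-null against wild type 29 were higher and 66 lower, and 37 and 47 with median of ratios scaling. In descendant against wild type 34 were higher and 43 lower, and 53 and 33 with scaling to the miRNA total. In descendant against Khdc3-null 69 were higher and 52 lower, and 58 and 71 with TMM scaling. The count model planned as another test was not run. No paired analysis was possible because the labels give no replicate numbers shared between groups. For hairpins of the cluster below 10 RPM counting error alone came to 17.1% of the level.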
